A study of Mus musculus with 13 samples.

Results

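Urban particulate matter (PM) was compared with saline in mice that drank the vehicle water without metformin, which is the arm of the study that shows what the particles did on their own. The comparison used 7 of the 13 RNA-seq libraries of the study, 3 from mice given PM and 4 from mice given phosphate-buffered saline (PBS), chosen by the vehicle and exposure labels in the column names of the count table. All 11906 genes that passed a filter on low counts were compared. Each library holds polyadenylated RNA of alveolar macrophages sorted by flow cytometry, and the donors were male C57Bl/6 mice at 10 weeks of age, with no altered allele or transgene named in the labels. Mice of the PM group received 10 µg of a standard urban dust into the trachea, and the cells were collected 24 h later. The other 6 libraries come from mice on metformin, given at 100 mg/kg/day in the water from 24 h before the instillation, 3 with PBS and 3 with PM. The series describes the samples of a group as biological replicates, and a single dose and a single time were sampled.

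Alveolar macrophages sit on the inner surface of the air sacs, where they clear inhaled particles and recycle the lipids of surfactant. Their identity depends on the growth factor GM-CSF and on the lipid-sensing nuclear receptor PPARγ, and at rest they are quiet cells that dampen inflammation. After taking up particles they can release cytokines such as interleukin 6 and tumour necrosis factor and chemokines that recruit neutrophils, many of them under the control of the transcription factor NF-κB. Particles that carry metals and organic compounds also engage genes for antioxidant defence, iron storage and haem breakdown.

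The markers of the sorted cell type were present in all 7 libraries. Counts were scaled to CPM, a gene's count per 1000000 counted reads of its library, which is not corrected for transcript length, so that levels are compared between libraries and not between genes. Siglecf, a surface lectin of alveolar macrophages, was read at 543 to 587 CPM with PBS and 489 to 495 CPM with PM. Itgax, which encodes CD11c, was read at 1690 to 1780 and 1850 to 1870 CPM, and Pparg at 160 to 206 and 194 to 218 CPM. The neutrophil markers Ly6g and Retnlg had no count in any of the 7 libraries. The vehicle libraries held 5567481 to 7107452 counts over 15883 to 16166 detected genes, and Pearson's r across genes between 2 libraries of the same group was 0.987 to 0.991 in log2 CPM. Because the RNA is from bulk sorted cells, fewer cells of a kind and less RNA per cell cannot be told apart.

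After PM 309 genes rose (2.6% of those tested) and 269 genes fell (2.26%), together 578 genes or 4.85%, at an adjusted p under 0.05. Here and below, differences are log2 values, PM minus PBS, from edgeR's quasi-likelihood fit with the standard error after the ± sign, and p values are adjusted by Benjamini-Hochberg over all tested genes. Rises were larger than falls. The median log2 difference was 0.548 among the genes that rose and −0.357 among those that fell, beside −0.00134 over all tested genes. Differences of more than 2-fold were found for 85 of the rises and 12 of the falls, and of more than 4-fold for 29 rises and 1 fall, whereas 162 rises and 223 falls were under 1.5-fold.

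The genes that rose took 5.15 to 5.57% of all CPM in the PBS libraries and 7.29 to 7.44% in the PM libraries. Those that fell went from 5.37 to 5.55% down to 4.41 to 4.55%. For 296 of the 309 rises and 259 of the 269 falls the 3 PM libraries did not overlap the 4 PBS libraries in CPM, a separation that 7.33% of all tested genes showed upward and 7.6% downward. When each of the 7 libraries was left out in turn, 255 of the 578 genes were called in all 7 fits, 164 rises (53.1%) and 91 falls (33.8%). The total dropped to 359 without PM 2, and the falls to 178, 150 and 170 without PM 1, PM 2 and PM 3. Unless a library is named beside it, each gene described below as having risen or fallen kept its call in all 7 of these fits.

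**Figure D1:**
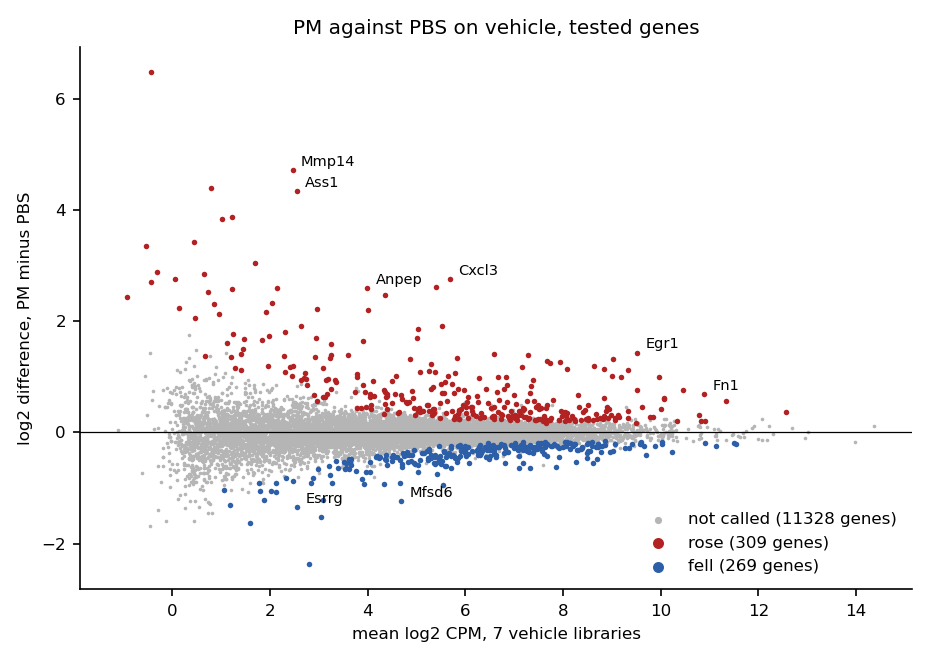
Log2 difference between PM and PBS on vehicle (vertical axis) against mean log2 CPM of the 7 vehicle libraries (horizontal axis) for the 11906 tested genes. Red points are the 309 genes that rose, blue points the 269 that fell and grey points the genes that were not called, and the rises reach much farther from 0 than the falls.

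Among genes with at least 5 CPM in the higher group, the largest rises included genes for tissue remodelling, growth signalling and amino acid metabolism. Only genes without overlap between the groups could be picked as largest rises or falls, so their lack of overlap is not a separate result. Mmp14 encodes a membrane-bound matrix metalloproteinase that cleaves collagen. It stood at 0.95, 0.47, 0.159 and 0.179 CPM in the PBS libraries and 7.91, 18.0 and 10.9 CPM in the PM libraries (log2 difference 4.71 ± 0.40, adjusted p = 3.48e-07). The transcript was close to absent in every PBS library and was lowest in PM 1 among the exposed libraries, without overlap between the groups.

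Ass1, the enzyme that joins citrulline and aspartate on the way to arginine, was read at 0.633, 0.47, 1.12 and 0.179 CPM in the PBS libraries and 10.6, 14.6 and 13.2 CPM in the PM libraries (log2 difference 4.34 ± 0.30, adjusted p = 3.18e-08). Met encodes the receptor tyrosine kinase for hepatocyte growth factor and was read at 0.317, 0.47, 0.319 and 0.179 CPM in the PBS libraries and 3.96, 6.84 and 4.23 CPM in the PM libraries (log2 difference 3.86 ± 0.36, adjusted p = 1.14e-06). Inhba, the subunit of the TGF-β family ligand activin A, was read at 0.317, 1.10, 1.44 and 0.179 CPM in the PBS libraries and 5.79, 5.44 and 8.45 CPM in the PM libraries (log2 difference 3.05 ± 0.40, adjusted p = 6.59e-05). All 3 genes were near the detection limit with PBS and were present in every PM library, so that their fold changes rest on small PBS counts.

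Anpep, which encodes the surface aminopeptidase CD13, had more counts behind it, with 4.59, 5.33, 4.46 and 5.72 CPM in the PBS libraries and 26, 35.1 and 30.1 CPM in the PM libraries (log2 difference 2.59 ± 0.15, adjusted p = 1.9e-09). The 3 PM libraries lay close together and far above PBS. Other genes with large rises were Slc7a11, Cfb, Pla2g7, Wfdc17, Hp, Cyfip2, Sema4d, Sash1, Cspg4, Lrg1 and Spata13, with log2 differences from 1.40 (Spata13) to 2.62 (Slc7a11). Cyfip2, part of a complex that regulates actin, rose by 1.91 ± 0.25, Sema4d, a semaphorin of immune cells, by 1.80 ± 0.19, and Cspg4, a membrane proteoglycan, by 1.59 ± 0.18.

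Some genes with large estimated rises had under 5 CPM in both groups and were picked out after their values were seen. Cyp26b1, which breaks down retinoic acid, had no count in any PBS library and 7, 15 and 11 counts in the PM libraries, at least 13.6-fold higher against a floor of 3 counts over the PBS group. It kept its call in all 7 fits, and on metformin its counts summed to 15 with PBS and 28 with PM. H2-M2, a non-classical class I gene, had 4 counts over the PBS libraries and 18, 29 and 27 in the PM libraries (adjusted p = 6.63e-05), and Aoah, which inactivates bacterial lipopolysaccharide, had 10 counts over the PBS libraries and 15, 24 and 21 with PM (adjusted p = 0.000142). Il7r, the interleukin 7 receptor, did not pass the filter on low counts and had none in the PBS libraries and 8, 18 and 7 in the PM libraries.

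Matrix proteases and their inhibitors were a list of 24 genes, of which 17 were tested and 4 rose, with a median of 0.127. Of these rises 1 rested on 4 counts over the PBS libraries and 19 over the PM libraries. It was called in only 2 of the 7 fits without 1 library. Mmp12, the macrophage elastase, was read at 4.54 to 11.1 CPM with PBS and 17.5 to 29.1 CPM with PM (log2 difference 1.64 ± 0.25, adjusted p = 0.000366). Ctsk, the collagen-cleaving lysosomal protease cathepsin K, was read at 498 to 628 CPM with PBS and 866 to 1098 CPM with PM (log2 difference 0.75 ± 0.08, adjusted p = 6.72e-06). Mmp14, Mmp12 and Ctsk were highest in PM 2, and the groups overlapped for none of them. The matrix proteins Fn1 (fibronectin; 1360 to 1735 against 2030 to 2907 CPM, log2 difference 0.69 ± 0.11, adjusted p = 0.000721) and Tgfbi (a TGF-β-induced adhesion protein; 834 to 912 against 1212 to 1423 CPM, log2 difference 0.61 ± 0.06, adjusted p = 4.95e-06) also rose.

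**Figure D2:**
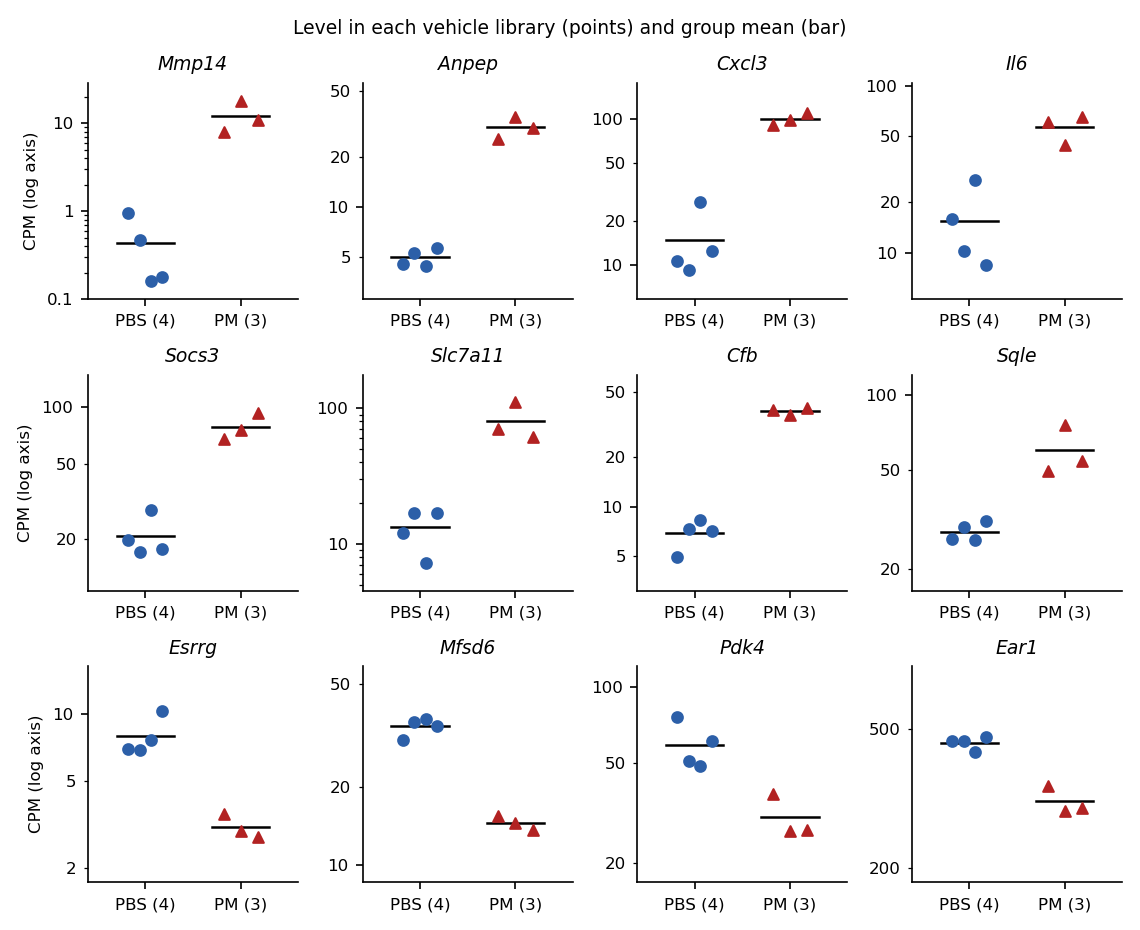
CPM in each vehicle library (log axis) for 12 genes, with 4 PBS libraries (circles) and 3 PM libraries (triangles) and a bar at each group's mean. In Mmp14, Anpep, Cxcl3, Il6, Socs3, Slc7a11, Cfb and Sqle the PM libraries lie above all PBS libraries, and in Esrrg, Mfsd6, Pdk4 and Ear1 they lie below.

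Among growth factors and receptor tyrosine kinases, 5 of 22 tested genes rose and 1 fell, with a median of 0.0779. Without PM 3 the rises numbered 3. Beside Met, the epidermal growth factor receptor ligand Areg rose from 23.6, 21.8, 31.2 and 25.7 CPM to 55.4, 38.9 and 70.4 CPM (log2 difference 1.10 ± 0.16, adjusted p = 0.000268). Csf1r, the receptor for the macrophage growth factor M-CSF, rose by a smaller step (276 to 338 against 377 to 441 CPM, log2 difference 0.40 ± 0.06, adjusted p = 0.000562). The receptor kinase that fell was Flt1, which binds vascular endothelial growth factor, at 442, 456, 481 and 509 CPM in the PBS libraries and 333, 318 and 364 CPM in the PM libraries (log2 difference −0.48 ± 0.06, adjusted p = 6.63e-05). Here PBS and PM libraries were apart by more than their spread, with every PM library lower.

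Of 28 chemokine genes 17 were tested, 7 rose and none fell, and the list's median was 0.431. Between 7 and 9 rose when single libraries were left out. Cxcl3 was read at 10.6, 9.24, 26.9 and 12.3 CPM in the PBS libraries and 91.4, 98.4 and 110.1 CPM in the PM libraries (log2 difference 2.75 ± 0.25, adjusted p = 8.55e-07). Its relatives Cxcl1 (37.0 to 76.0 against 124 to 180.1 CPM, log2 difference 1.40 ± 0.18, adjusted p = 4.4e-05) and Cxcl2 (562 to 985 against 1104 to 1560 CPM, log2 difference 1.0 ± 0.16, adjusted p = 0.000734) rose by less. These 3 ligands of the receptor CXCR2 lie in a cluster on chromosome 5.

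Ccl9, a ligand of the receptor CCR1, was read at 71.4 to 119 CPM with PBS and 191 to 224 CPM with PM (log2 difference 1.17 ± 0.14, adjusted p = 1.66e-05). Ccl17, which attracts T cells through CCR4, went from 0.47 to 0.95 to 4.06 to 5.13 CPM (log2 difference 2.58 ± 0.37, adjusted p = 0.000191), and Pf4 and Cxcl16 rose by 2.13 ± 0.36 and 0.98 ± 0.20. The monocyte attractant Ccl2 was not called, at 7.28, 7.36, 9.25 and 5.72 CPM with PBS and 6.07, 4.51 and 6.83 CPM with PM (log2 difference −0.36 ± 0.18, adjusted p = 0.351). Ccl3 and Ccl4 were also not called (adjusted p = 0.0937 and 0.895).

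Il6, the cytokine interleukin 6, was read at 15.8, 10.2, 27.1 and 8.40 CPM in the PBS libraries and 60.2, 44.0 and 64.7 CPM in the PM libraries (log2 difference 1.86 ± 0.26, adjusted p = 0.000142). Tnf, tumour necrosis factor, was read at 356, 224, 498 and 197 CPM in the PBS libraries and 948, 577 and 846 CPM in the PM libraries (log2 difference 1.31 ± 0.28, adjusted p = 0.00771). For both cytokines PBS 3 was the highest of the saline libraries and PM 2 the lowest of the exposed ones, and the groups still did not overlap. PBS 3 was also the highest saline library and PM 2 the lowest exposed one for Cxcl1, Cxcl2, Egr1, Nfkbiz and Tnfaip3, which were picked out for sharing these extremes, and the order of the other libraries differed between genes.

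The bases just before the start sites of some cytokine and feedback genes that rose held matches to the NF-κB consensus (named κB). The genes shown were picked for holding a match, and none is shown for Tnf, Nfkbiz or Egr1. The stretches come from the RefSeq promoter table of GRCm38.p6 and are written 5′ to 3′ on the gene's strand with the match in capitals.
Cxcl1 (chr5:90891159-90891198, plus strand): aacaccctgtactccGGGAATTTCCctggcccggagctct
Cxcl2 (chr5:90903787-90903826, plus strand): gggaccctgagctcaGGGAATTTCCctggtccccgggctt
Cxcl3 (chr5:90786013-90786052, plus strand): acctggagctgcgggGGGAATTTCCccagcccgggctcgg
Il6 (chr5:30013055-30013094, plus strand): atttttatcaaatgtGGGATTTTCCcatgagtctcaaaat
Tnfaip3 (chr10:19015511-19015550, minus strand): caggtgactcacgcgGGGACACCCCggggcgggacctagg
Nfkbia (chr12:55492652-55492691, minus strand): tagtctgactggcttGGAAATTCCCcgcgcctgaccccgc
Nfkb2 (chr19:46304683-46304722, plus strand): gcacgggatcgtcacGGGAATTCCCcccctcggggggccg

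The 3 Cxcl genes carry the same 10 capital letters, which start 71, 97 and 73 bases before their starts. Shares were taken over the whole promoter window of each start, on both strands, and not only over the 250 bases before it. The κB consensus was found in 13.9% of windows of genes that rose, 13.7% of those that fell and 10.1% of all tested windows. It was found in 5 of 14 chemokine windows (35.7%). A match is a run of letters and was not tested as a binding site. Of the 7 genes shown, Nfkb2, which encodes an NF-κB subunit, had the smallest rise (log2 difference 0.33 ± 0.08, adjusted p = 0.0148), and its call was lost without PM 1 or PM 3 (adjusted p = 0.0727 and 0.0547).

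Several inhibitors of NF-κB signalling, picked for their role, rose beside the cytokines. Nfkbia, which encodes IκBα and holds NF-κB in the cytoplasm, was read at 392, 261, 506 and 272 CPM in the PBS libraries and 808, 552 and 818 CPM in the PM libraries (log2 difference 1.02 ± 0.21, adjusted p = 0.0046). Tnfaip3, the ubiquitin-editing brake A20, was read at 338 to 527 CPM with PBS and 666 to 933 CPM with PM (log2 difference 1.0 ± 0.14, adjusted p = 0.000166), and Nfkbiz, a nuclear IκB that helps to switch on Il6, at 55.4 to 149 CPM with PBS and 156 to 298 CPM with PM (log2 difference 1.38 ± 0.25, adjusted p = 0.00204). Nfkbie, a further IκB, rose by 0.64 ± 0.13, and Tnip3, a partner of A20, was all but absent with PBS and rose by 3.35 ± 0.61. Among adaptors and kinases of pattern recognition 4 of 31 tested genes rose and none fell, including the IκB kinase Ikbke (log2 difference 1.73 ± 0.30, adjusted p = 0.00116) and the ubiquitin ligase Birc3 (log2 difference 0.42 ± 0.07, adjusted p = 0.00116). Of the 4, Ikbke and Birc3 kept their call in all 7 fits, Map3k8 only without PBS 3 or PM 2 and Traf3 only without PBS 3.

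In the JAK-STAT list 4 of 27 tested genes rose and none fell, with a median of −0.00612, and 4 rose in each fit without 1 library. None of the 4 is a Janus kinase or a STAT factor. Socs3, which shuts off signalling by the interleukin 6 receptor, was read at 19.9, 17.1, 28.5 and 17.9 CPM in the PBS libraries and 68.0, 75.7 and 93.0 CPM in the PM libraries (log2 difference 1.91 ± 0.17, adjusted p = 5.65e-07). Cish, a related inhibitor, rose by 0.76 ± 0.15, the phosphatase Ptpn1 by 0.50 ± 0.05 and the kinase Pim1 by 0.39 ± 0.08. Every PM library exceeded every PBS library for Socs3, and the highest PBS value was again that of PBS 3.

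The stretch before the Socs3 start is shown for its match to the STAT half-site pair TTCNNNGAA, in capitals.
Socs3 (chr11:117969497-117969535, minus strand): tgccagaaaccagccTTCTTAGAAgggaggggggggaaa
This motif, read on both strands, was found in 11.7% of the windows of genes that rose, 8.53% of those that fell and 6.77% of all tested windows. The AP-1 motif TGANTCA was found in 9.39%, 5.8% and 4.9% of them. Other motifs searched were the antioxidant response core TGACNNNGC (17.2%, 11.9% and 14.6%), the sterol core TCACNCCAC (0.647%, 1.71% and 1.1%) and the cyclic AMP response element TGACGTCA (2.59%, 1.37% and 3.13%).

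Receptors that sense microbes and damage moved in a narrow set. Of 29 tested pattern recognition receptors 4 rose and 1 fell, with a median of 0.0514, and the rises included 3 neighbouring C-type lectins of one gene cluster. Clec4d was read at 15.8 to 19.8 CPM with PBS and 37.0 to 56.1 CPM with PM (log2 difference 1.33 ± 0.16, adjusted p = 2.17e-05). Clec4e, known as Mincle, was read at 56.4 to 93.3 CPM with PBS and 132 to 153 CPM with PM (log2 difference 1.0 ± 0.13, adjusted p = 5.85e-05), and Clec4n, known as Dectin-2, at 413 to 432 CPM with PBS and 476 to 542 CPM with PM (log2 difference 0.30 ± 0.06, adjusted p = 0.00237). Gpr84, a receptor for medium-chain fatty acids, rose by 1.67 ± 0.34 and Ccrl2, a non-signalling chemerin receptor, by 1.14 ± 0.12. C5ar1, the receptor for the complement fragment C5a, was read at 465 to 506 CPM with PBS and 355 to 397 CPM with PM and fell (log2 difference −0.35 ± 0.06, adjusted p = 0.00112).

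Of 12 tested complement genes Cfb and C3 rose and C5ar1, described above, fell. Cfb, complement factor B of the alternative pathway, was read at 4.91, 7.36, 8.29 and 7.15 CPM in the PBS libraries and 39.1, 36.1 and 40.0 CPM in the PM libraries (log2 difference 2.47 ± 0.14, adjusted p = 1.9e-09). C3, the central component, was read at 276, 247, 248 and 252 CPM in the PBS libraries and 539.9, 672 and 546 CPM in the PM libraries (log2 difference 1.2 ± 0.08, adjusted p = 2.73e-08). In both genes the PM libraries lay well above all PBS libraries. Hp, haptoglobin, which binds free haemoglobin, went from 0.94 to 1.91 to 6.01 to 8.05 CPM (log2 difference 2.16 ± 0.25, adjusted p = 1.66e-05). Lrg1, a secreted leucine-rich glycoprotein, rose by 1.40 ± 0.21, and the small whey acidic proteins Wfdc17 and Wfdc21 by 2.20 ± 0.18 and 0.78 ± 0.07.

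Among leukocyte adhesion genes 2 of 25 rose in each of the 7 fits, and 1 fell with a call kept in only 2 of them. Itgam, the CD11b integrin chain, which resting alveolar macrophages carry at low level, was read at 4.27, 4.39, 5.26 and 4.11 CPM in the PBS libraries and 11.6, 13.5 and 9.59 CPM in the PM libraries (log2 difference 1.36 ± 0.17, adjusted p = 5.01e-05). Icam1, the ligand of the β2 integrins, was read at 109 to 114 CPM with PBS and 148 to 165 CPM with PM (log2 difference 0.50 ± 0.05, adjusted p = 4.5e-06). The shared β chain of the receptors for GM-CSF, interleukin 3 and interleukin 5, Csf2rb, rose by 0.28 ± 0.05, its close copy Csf2rb2 by 0.35 ± 0.06 and the interleukin 4 receptor chain Il4ra by 0.39 ± 0.07. Reads of Csf2rb and Csf2rb2, as of Ear1 and Ear2, may be shared between near-identical copies. Of the 23 tested scavenger and uptake receptors 4 rose and 1 fell, and 2 of the rises were called without PM 2 or PBS 4. They included the inhibitory Fc receptor Fcgr2b at 118 to 123 CPM with PBS and 196 to 257 CPM with PM (log2 difference 0.94 ± 0.08, adjusted p = 3.38e-07).

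Pla2g7, which breaks down platelet-activating factor, was read at 1.90, 2.04, 0.797 and 1.25 CPM in the PBS libraries and 6.92, 9.64 and 6.34 CPM in the PM libraries (log2 difference 2.33 ± 0.31, adjusted p = 7.29e-05). Ptafr, the receptor for the same lipid, was read at 6.58 to 11.4 CPM with PBS and 16.8 to 22.9 CPM with PM (log2 difference 1.05 ± 0.17, adjusted p = 0.000722). Ptgs2, the inducible cyclooxygenase, was read at 1.57 to 2.07 CPM with PBS and 2.97 to 4.88 CPM with PM (log2 difference 1.12 ± 0.25, adjusted p = 0.0109) and lost its call without PM 3 (adjusted p = 0.0825). In all, 4 of 23 tested genes of eicosanoid synthesis and their receptors rose and 2 fell, and none of the falls remained without PBS 4 or PM 1.

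Cholesterol synthesis was the list with the most calls. Cells make cholesterol when the transcription factor SREBP2 is released by low sterol in the endoplasmic reticulum, and export it when oxysterols switch on the nuclear receptor LXR. Of 25 tested genes controlled by SREBP, 16 rose and none fell, the median was 0.667, and 15 to 17 rose when single libraries were left out. Sqle, the first oxygen-requiring enzyme of the pathway, was read at 26.3, 29.3, 26 and 31.1 CPM in the PBS libraries and 49.6, 75.7 and 54.3 CPM in the PM libraries (log2 difference 1.09 ± 0.14, adjusted p = 7.24e-05). Every PM library lay above every PBS library, with PM 2 the highest, as it was for 14 of the 16 genes.

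Rises were found at early and late steps. Hmgcs1, an early enzyme, rose by 0.67 ± 0.06, and Idi1 and Fdps, which build isoprenoid units, by 0.90 ± 0.14 and 1.08 ± 0.16. The later enzymes Lss, Cyp51, Msmo1, Hsd17b7 and Sc5d rose by 0.68, 0.98, 0.71, 0.76 and 0.92. Insig1, which retains SREBP in the endoplasmic reticulum, rose by 0.72 ± 0.08, and Srebf2, the gene of SREBP2, by 0.44 ± 0.07. Srebf1, whose product drives fatty acid synthesis, was not called (log2 difference −0.14 ± 0.05, adjusted p = 0.179), nor was the fatty acid desaturase Scd1 (log2 difference −0.43 ± 0.13, adjusted p = 0.0694).

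The sterol core motif was found before 1 of the 19 sterol genes that had a window, and that stretch is shown.
Hmgcs1 (chr13:119690199-119690237, plus strand): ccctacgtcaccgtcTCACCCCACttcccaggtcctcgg

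Genes of cholesterol export went partly the other way. Of 25 tested LXR and efflux genes 2 rose and 5 fell, with a median of −0.0546, and 4 to 6 fell when single libraries were left out. Pltp, a phospholipid transfer protein, was read at 366, 374, 333 and 356 CPM in the PBS libraries and 273, 215 and 248 CPM in the PM libraries (log2 difference −0.54 ± 0.08, adjusted p = 0.000163). Mylip, a ubiquitin ligase switched on by LXR, was read at 98.1 to 109 CPM with PBS and 74.5 to 77.4 CPM with PM (log2 difference −0.42 ± 0.08, adjusted p = 0.00164), and the sterol exporter Abcg1 at 3146 to 3203 CPM with PBS and 2720 to 2757 CPM with PM (log2 difference −0.22 ± 0.04, adjusted p = 0.00205). Nceh1, which frees cholesterol from its esters, fell (log2 difference −0.24 ± 0.05, adjusted p = 0.00364), and Abca1 fell with an adjusted p of 0.0115, or 0.0831 without PM 2. Ch25h, which makes 25-hydroxycholesterol, rose from 19, 14.7, 17.2 and 14.8 CPM to 58.9, 56.8 and 43.9 CPM (log2 difference 1.69 ± 0.16, adjusted p = 1.08e-06), and Stard4, a sterol carrier, by 0.75 ± 0.12. Apoe was not called (log2 difference −0.04 ± 0.14, adjusted p = 0.924).

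**Figure D3:**
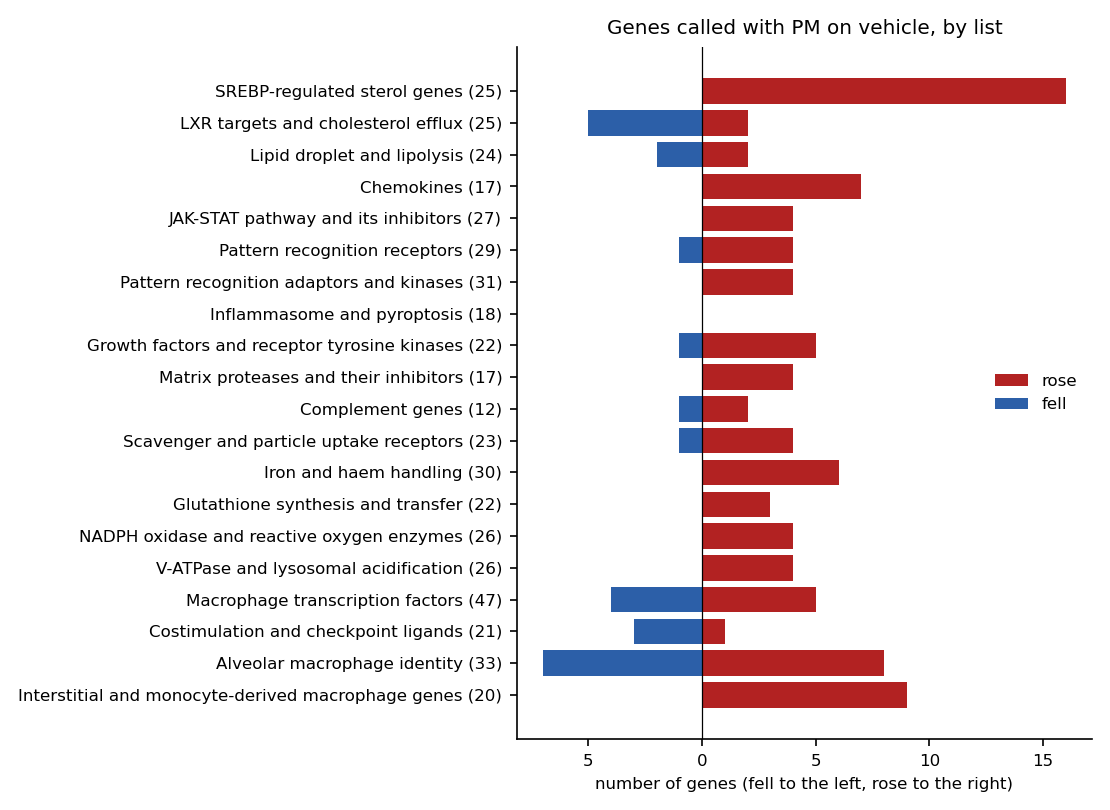
Number of tested genes that rose (red, to the right) and fell (blue, to the left) with PM on vehicle in 20 gene lists, with the number of tested members in brackets after each name. The sterol list has 16 rises and no fall, and the LXR list has more falls than rises.

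Several genes of lipid burning and storage, named one by one and not as a list, fell. Of 24 tested lipid droplet and lipolysis genes 2 rose and 2 fell. Esrrg, a nuclear receptor that switches on mitochondrial energy genes, was read at 6.96, 6.89, 7.65 and 10.4 CPM in the PBS libraries and 3.53, 2.95 and 2.76 CPM in the PM libraries (log2 difference −1.35 ± 0.20, adjusted p = 0.000364). Pdk4, which blocks the entry of pyruvate into the citrate cycle and is high when fat is burned, was read at 75.5, 50.9, 48.3 and 60.9 CPM in the PBS libraries and 37.4, 26.7 and 27 CPM in the PM libraries (log2 difference −0.95 ± 0.17, adjusted p = 0.00167). For both genes every PM library was below every PBS library.

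Acot1, a cytosolic acyl-CoA thioesterase, fell from 56.4 to 67.4 to 36.2 to 41.4 CPM (log2 difference −0.64 ± 0.08, adjusted p = 2.17e-05), and Acaa1b, a peroxisomal thiolase, from 156 to 169 to 93.3 to 123 CPM (log2 difference −0.65 ± 0.09, adjusted p = 0.000104). Gpd1, glycerol-3-phosphate dehydrogenase, fell by 0.63 on the log2 scale, Lipf, a lipase, by 0.71, and Fabp1, which binds fatty acids, by 0.55. The lipid droplet protein Cidec was read at 384 to 428 CPM with PBS and 311 to 351 CPM with PM (log2 difference −0.34 ± 0.06, adjusted p = 0.000785). Its neighbours in the same list, the fatty acid binding proteins Fabp4 and Fabp5, rose by 0.53 ± 0.09 and 0.54 ± 0.09, while Fabp1 of the same family fell.

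Most redox genes were not called, but in each list the share that rose exceeded the 2.6% of all tested genes that rose. Of 22 tested glutathione genes 3 rose and none fell, with a median of −0.0178, and 1 of the rises was called in only 2 of the 7 fits. Of 20 tested pentose phosphate and NADPH genes 3 rose, with a median of 0.0855. None of these 3 is an enzyme of the pentose phosphate pathway itself, and 1 lost its call without PBS 2 or PM 2. Slc7a11, the cystine importer, was read at 12, 16.9, 7.17 and 16.8 CPM in the PBS libraries and 70.1, 111 and 61.9 CPM in the PM libraries (log2 difference 2.62 ± 0.21, adjusted p = 2.56e-07). Gclm, the regulatory subunit of the first enzyme of glutathione synthesis, rose by 0.45 ± 0.08. Me1, which makes NADPH from malate, went from 0.319 to 1.10 to 2.26 to 4.51 CPM (log2 difference 2.31 ± 0.36, adjusted p = 0.000391), and Nqo1, a quinone reductase switched on by NRF2, rose from 0.95 to 1.41 to 3.25 to 4.04 CPM (log2 difference 1.61 ± 0.29, adjusted p = 0.00161). The mitochondrial superoxide dismutase Sod2 was read at 81.1 to 89.4 CPM with PBS and 151 to 162 CPM with PM (log2 difference 0.86 ± 0.08, adjusted p = 5.65e-07), and the NADPH oxidase subunit Cybb rose by 0.21 ± 0.04. Of the 26 tested oxidase and reactive oxygen genes 4 rose, and 2 did so without PM 2.

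In the iron and haem list 6 of 30 tested genes rose and none fell, with a median of 0.0634, and each of the 6 was highest in PM 2. Between 4 and 6 rose when single libraries were left out. Hmox1, which breaks down haem, was read at 150.5, 171, 138 and 150.2 CPM in the PBS libraries and 299.9, 591 and 208 CPM in the PM libraries (log2 difference 1.27 ± 0.22, adjusted p = 0.0012). PM 2 was far above PM 1 and PM 3, and without it the log2 difference was 0.74.

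Tfrc, the transferrin receptor, was read at 14.1 to 19 CPM with PBS and 28.7 to 36.1 CPM with PM (log2 difference 0.92 ± 0.12, adjusted p = 7.24e-05). Slc11a1, which pumps iron and manganese out of the phagosome, was read at 1.90, 4.07, 2.87 and 3.22 CPM in the PBS libraries and 10.7, 19.1 and 12.5 CPM in the PM libraries (log2 difference 2.22 ± 0.24, adjusted p = 6.72e-06). Fth1, the ferritin heavy chain, was read at 5371 to 5495 CPM with PBS and 6471 to 7996 CPM with PM (log2 difference 0.37 ± 0.07, adjusted p = 0.00221).

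Amino acid genes that rose beside Ass1 and Slc7a11 were Asns, asparagine synthetase (3.32 to 7.99 against 11.2 to 13.8 CPM, log2 difference 1.16 ± 0.23, adjusted p = 0.00354), and the cationic amino acid transporter Slc7a2 (644 to 718 against 859 to 968 CPM, log2 difference 0.45 ± 0.07, adjusted p = 0.00027). Acod1, which makes the antimicrobial metabolite itaconate, was read at 0.475, 0.47, 0.159 and 0 CPM in the PBS libraries and 2.97, 4.20 and 5.85 CPM in the PM libraries (log2 difference 3.83 ± 0.54, adjusted p = 0.00016). It was close to 0 with PBS and uneven with PM. Slc1a3, a glutamate transporter, went the other way, from 9.65 to 12.7 to 2.64 to 6.07 CPM (log2 difference −1.22 ± 0.23, adjusted p = 0.0021). Arg1 and Nos2, the arginine-consuming enzymes used to mark macrophage states, did not pass the filter on low counts.

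Some immediate early genes and their feedback regulators rose, and Atf3 was called lower (log2 difference −0.26 ± 0.07, adjusted p = 0.0482), a call kept only without PBS 4 among the 7 fits. Of 22 tested MAP kinase phosphatases and feedback genes Dusp1 alone was called, with a median of −0.0195. Egr1 was read at 361, 339, 648 and 350.2 CPM in the PBS libraries and 1383, 799 and 1260 CPM in the PM libraries (log2 difference 1.43 ± 0.21, adjusted p = 0.000245), and Fos at 1637 to 2540 CPM with PBS and 3122 to 3244 CPM with PM (log2 difference 0.57 ± 0.10, adjusted p = 0.00114). PM 2 had the lowest Egr1 level of the exposed libraries and PM 1 the highest, and PBS 3 was the highest of the saline libraries. Egr2 rose by 0.68 ± 0.11 and Myc by 0.82 ± 0.15. Zfp36, which binds and destabilises cytokine transcripts such as Tnf, was read at 873 to 1404 CPM with PBS and 1611 to 2027 CPM with PM (log2 difference 0.76 ± 0.12, adjusted p = 0.00038). Dusp1, a MAP kinase phosphatase, rose by 0.61 ± 0.11, and the stress genes Gadd45b and Ier3 by 1.06 ± 0.17 and 1.01 ± 0.18.

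Of 47 tested macrophage transcription factors 5 rose and 4 fell, with a median of 0.0604. The inhibitors of DNA binding Id2 and Id3 rose by 0.55 ± 0.07 and 0.94 ± 0.19, and Bhlhe40, which also belongs to the circadian list, by 0.42 ± 0.07. Beside Esrrg, Runx2 and Fli1 fell (log2 difference −0.47 ± 0.07, adjusted p = 0.000504 and log2 difference −0.45 ± 0.09, adjusted p = 0.00266). Pparg, Cebpb and Spi1, which set alveolar macrophage and myeloid identity, were not called (adjusted p = 0.15, 0.793 and 0.45). Nr1d2, a clock repressor, was read at 14.4 to 19.4 CPM with PBS and 30.2 to 36.7 CPM with PM (log2 difference 1.0 ± 0.12, adjusted p = 2.27e-05). Of the 16 tested glucocorticoid-induced genes, 4 rose, among them Fkbp5 (log2 difference 0.84 ± 0.10, adjusted p = 1.96e-05) and Sgk1 (log2 difference 0.31 ± 0.06, adjusted p = 0.00253), and 3 fell, of which none remained without PM 2 or PM 3.

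**Figure D4:**
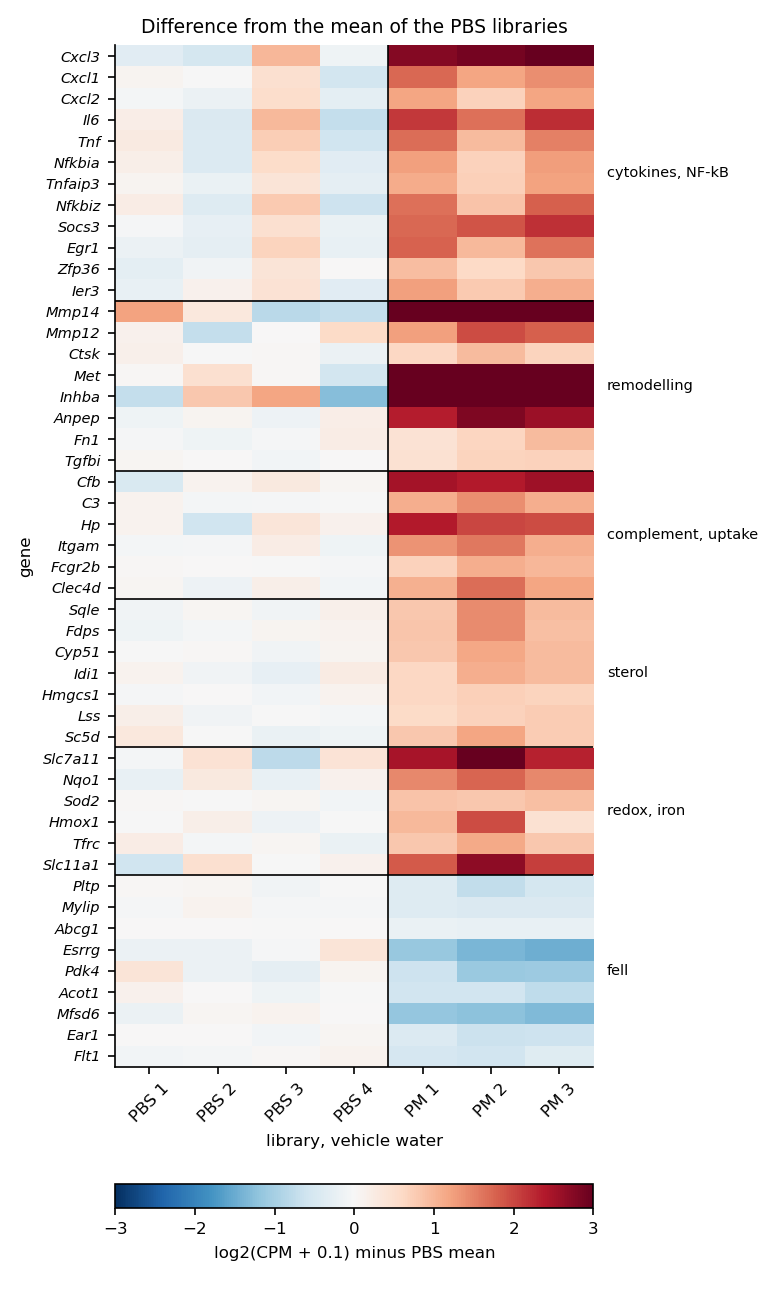
Log2 CPM of each vehicle library minus the mean of the 4 PBS libraries (colour, cut at −3 and 3), for 48 genes grouped by role. Columns are the 4 PBS and 3 PM libraries, and the sterol rows other than Lss are strongest in PM 2 while Il6, Tnf, Cxcl1, Cxcl2 and Egr1 are weakest there.

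The largest falls included transporters, surface proteins and matrix genes. Mfsd6, a membrane protein of a transporter superfamily, was read at 30.4, 35.7, 36.8 and 34.5 CPM in the PBS libraries and 15.4, 14.5 and 13.7 CPM in the PM libraries (log2 difference −1.24 ± 0.12, adjusted p = 1.33e-06). Hmcn1, a large extracellular protein, was read at 8.71, 10.2, 9.41 and 17.9 CPM in the PBS libraries and 4.66, 3.42 and 3.74 CPM in the PM libraries (log2 difference −1.52 ± 0.27, adjusted p = 0.00127). For each of them the PBS and PM libraries did not overlap, as the rule for picking the largest falls required.

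Ecm1, an extracellular matrix protein, fell from 21.6 to 30.1 to 11.7 to 14.3 CPM (log2 difference −0.93 ± 0.14, adjusted p = 0.000481), and Acap1, which acts in the recycling of membrane proteins, from 27.3 to 35.9 to 14.6 to 20.6 CPM (log2 difference −0.91 ± 0.13, adjusted p = 0.000134). Gpr34, a lysophospholipid receptor, fell by 1.07 on the log2 scale, Trp53i11 by 0.76, Ttll7 by 0.71, Cmbl by 0.71 and Hr by 0.62. Slc15a2, a peptide transporter, had the largest estimated fall but not a stable call. It was read at 10.9, 11.4, 13.4 and 6.61 CPM in the PBS libraries and 1.13, 1.09 and 4.06 CPM in the PM libraries (log2 difference −2.38 ± 0.64, adjusted p = 0.0343), without overlap between groups, and the adjusted p was 0.0539, 0.0766, 0.0762, 0.152 and 0.147 without PBS 1, PBS 2, PBS 3, PM 1 and PM 2.

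Of 21 tested costimulation and checkpoint genes 1 rose and 3 fell, and 1 of the falls remained without PM 1. The rise, of Cd200, was called only without PBS 1 or PM 3 among the 7 fits. Cd86, which activates T cells through CD28, was read at 15, 11.1, 11.3 and 10.4 CPM in the PBS libraries and 5.23, 5.75 and 8.29 CPM in the PM libraries (log2 difference −0.91 ± 0.20, adjusted p = 0.0081), or an adjusted p of 0.0595 without PM 1. Cd300ld, a receptor of myeloid cells, was read at 49.4 to 62.9 CPM with PBS and 31.4 to 40.9 CPM with PM (log2 difference −0.61 ± 0.11, adjusted p = 0.00114). H2-Aa and Cd74 of the class II pathway were read at 224 to 351 against 196 to 285 CPM and 823 to 1350 against 821 to 1110 CPM, with overlap between groups.

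The largest gains in CPM were found for Fth1, Fos, Fn1, Zfp36, Egr1, Cxcl2, Car4, Tnf, Dusp1, Tgfbi, Tnfaip3 and Ctsk. The largest losses among genes called in every fit were those of Abcg1, Laptm5, Ucp2, Ear2, Fam129a, Nceh1, Ear1, Flt1 and Slc15a3. Laptm5, a lysosomal membrane protein of blood cells, was read at 3014 to 3091 CPM with PBS and 2631 to 2670 CPM with PM (log2 difference −0.20 ± 0.04, adjusted p = 0.00772). Ucp2, a mitochondrial carrier, was read at 2327 to 2468 CPM with PBS and 1998 to 2064 CPM with PM (log2 difference −0.25 ± 0.05, adjusted p = 0.00185). These losses were small as folds and were separated from PBS in every PM library.

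The alveolar macrophage identity genes did not move in one direction. Of 33 tested members 8 rose and 7 fell, the median was −0.0246, and the summed level of the list was 43000 to 47500 CPM with PBS and 42100 to 44800 CPM with PM. Car4, a carbonic anhydrase, was read at 464, 422, 451 and 394 CPM in the PBS libraries and 810, 959 and 1040 CPM in the PM libraries (log2 difference 1.11 ± 0.08, adjusted p = 1.14e-07). The secreted ribonucleases Ear1 and Ear2 fell, Ear1 to 291 to 344 from 431 to 475 CPM (log2 difference −0.56 ± 0.06, adjusted p = 1.38e-05) and Ear2 by 0.35 on the log2 scale. Siglecf was lower in every PM library (log2 difference −0.20 ± 0.05, adjusted p = 0.0181), and this call was lost without PBS 4, PM 1 or PM 3 (adjusted p = 0.0593, 0.0677 and 0.0715).

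Of 20 tested genes of interstitial and monocyte-derived macrophages 9 rose and none fell, the median was 0.269, and the summed level was 3750 to 4080 CPM with PBS and 4720 to 5850 CPM with PM. Most of the gain in this sum came from Fn1 alone, read at 1360 to 1740 CPM with PBS and 2030 to 2910 CPM with PM. The members that rose included Mmp14, Mmp12, Itgam, Fn1, Csf1r and Pf4, described above, and 6 to 9 rose when single libraries were left out. Defining markers of monocytes were near 0, with 0, 0, 0 and 1 counts of Ly6c2 in the PBS libraries and 0, 1 and 0 in the PM libraries. Ccr2 was read at 6.79 to 9.81 CPM with PBS and 5.09 to 8.94 CPM with PM, and the interstitial markers Cx3cr1, C1qa and Folr2 stayed under 2 CPM in all 7 libraries. The part that such cells have in the rises was not tested.

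Of 26 neutrophil genes 11 were tested, and 2 rose, Hp and Wfdc21. The summed level was 874 to 978 CPM with PBS and 898 to 958 CPM with PM, mostly from members read at 286 to 426 CPM in each library. In contrast, 7 members had no count in any library, and S100a8 was read at 2.32 to 5.48 against 2.83 to 4.35 CPM. The lymphocyte list summed to 302 to 318 and 276 to 287 CPM, mostly from Cd2, and Cd3e and Cd79a were at or near 0. Immunoglobulin transcripts were the exception. Igha, the heavy chain of immunoglobulin A, was read at 0.317, 2.51, 1.44 and 1.25 CPM in the PBS libraries and 7.2, 12.8 and 5.53 CPM in the PM libraries (log2 difference 2.60 ± 0.50, adjusted p = 0.00313), and Igkc counts were 0, 7, 2 and 4 with PBS and 22, 32 and 8 with PM, highest for both in PM 2. The call of Igkc (adjusted p = 0.0255) was lost without PBS 1, PBS 3, PM 1 or PM 2 (adjusted p = 0.0627, 0.0676, 0.0667 and 0.175). Igha, the fold of which rests on few PBS counts, is a plasma cell product, and whether plasma cell RNA accounts for it was not tested.

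Epithelial and surfactant genes had 0 calls by edgeR among 16 tested, with 3 higher and 1 lower at an unadjusted p under 0.05 and 0 higher and 0 lower by DESeq2. Their summed level was 350 to 384 CPM with PBS and 338 to 400 CPM with PM. Dendritic cell genes summed to 1750 to 2570 and 1630 to 2170 CPM and endothelial and stromal genes to 226 to 269 and 236 to 325 CPM, overlapping between groups. Calls in these lists were 1 rise, of Ccl17, among 12 tested dendritic cell genes. Among 25 tested endothelial and stromal genes 1 rose and 1, Hmcn1, fell. The eosinophil, mast cell and basophil list reached 5.54 to 9.56 and 10.0 to 16.6 CPM, with 10 of 18 members at 0 in all 7 libraries. The higher sum rests on Ear6, a secreted ribonuclease and the 1 member tested (3.75 to 7.6 CPM with PBS and 9.46 to 14.5 CPM with PM, log2 difference 0.94 ± 0.19, adjusted p = 0.00582), whose call was lost without PM 2 (adjusted p = 0.0527).

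Several lists held no call. Over all tested genes 4.85% were called, so lists this short would hold few calls at that share. The inflammasome and pyroptosis list had 0 calls by edgeR among 18 tested genes, with 0 higher and 2 lower at an unadjusted p under 0.05 and 0 higher and 1 lower by DESeq2. Nlrp3 was read at 263, 220.3, 319 and 252 CPM in the PBS libraries and 322, 212 and 329 CPM in the PM libraries (log2 difference 0.13 ± 0.12, adjusted p = 0.688), with full overlap. Sphingolipid genes had 0 calls among 26, with 4 higher and 5 lower unadjusted and 0 higher and 0 lower by DESeq2, and chromatin regulators of inflammation 0 among 37, with 2 higher and 1 lower unadjusted and 1 higher and 0 lower by DESeq2. The 41 tested actin and phagocytosis genes included 1 call, the fall of Coro1a (log2 difference −0.34 ± 0.06, adjusted p = 0.000843).

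The 3 PM libraries differed among themselves in which genes rose most. Among the 309 genes that rose, PM 2 was the highest of the exposed libraries for 162 genes, PM 3 for 82 and PM 1 for 65, beside 4148, 3869 and 3889 of all 11906 genes. The lowest of the exposed libraries was PM 1 for 141 of the 309 genes, PM 3 for 87 and PM 2 for 81. Over all tested genes these counts were 3843, 3778 and 4285. PM 2 was highest for all 4 matrix proteases and all 4 uptake receptors that rose. It was lowest for Egr1, Tnf, Il6, Cxcl1, Cxcl2, Nfkbiz, Tnfaip3, Areg, Zfp36 and Ier3, which were picked out for that order. Leaving out PM 2 left 209 rises and 150 falls, the fewest of the 7 fits, and without PM 1 there were 261 and 178. The median log2 difference of the 309 genes was 0.513, 0.568 and 0.516 in PM 1, PM 2 and PM 3. The genes were called from these same libraries, which favours similar medians, and how alike the libraries responded was not tested.

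The same comparison in mice on metformin uses 6 other libraries and shares none with the vehicle comparison. It called 855 rises (7.18%) and 667 falls (5.6%), in all 1522, which became 895, 964 and 884 without metformin PBS 3, metformin PBS 4 and metformin PM 3. On metformin 13 of 25 tested endothelial and stromal genes and 6 of 16 epithelial and surfactant genes rose and none fell, against 1 and 0 rises on vehicle. What transcripts of other cell types add to differences between the arms was not tested. Of the 309 rises on vehicle, 185 also rose on metformin (59.9% of the vehicle rises and 21.6% of the metformin rises), and of the 269 falls, 123 also fell (45.7% and 18.4%). The log2 difference on metformin had the same sign for 289 of the 309 rises and 229 of the 269 falls, with medians of 0.409 and −0.228. The genes were picked by their vehicle calls, which favours larger values on vehicle. Mmp14, Ass1, Met, Anpep, Cxcl3, Socs3 and Cfb rose on both, with log2 differences on metformin of 4.42, 3.56, 4.07, 2.35, 3.19, 1.83 and 1.93.

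**Figure D5:**
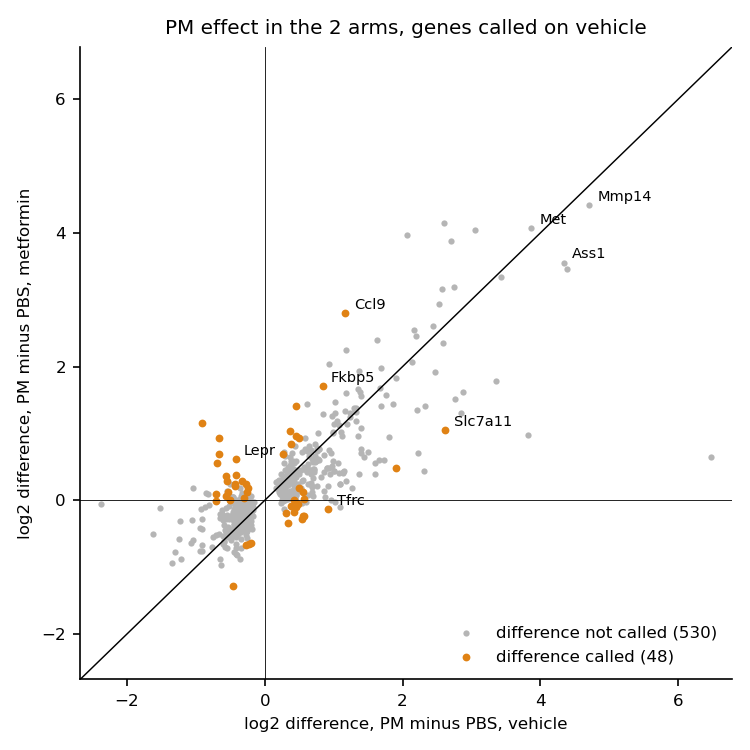
Log2 difference between PM and PBS on metformin (vertical axis) against that on vehicle (horizontal axis) for the 578 genes called on vehicle. Orange points are the 48 genes whose 2 differences differ at an adjusted p under 0.05, grey points are the other called genes, and the line marks equal differences.

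The difference between the 2 PM effects was itself tested and was called for 171 of 11906 genes (1.44%), 106 higher on metformin (0.89%) and 65 lower (0.546%), among them 24 of the 309 vehicle rises and 24 of the 269 falls. It was called for 113 genes without metformin PBS 4 and for 262 without vehicle PBS 4. The log2 effect was lower on metformin for 16 of these rises and higher for 8. For the falls it was higher on metformin, meaning less negative or above 0, for 20 genes and lower for 4. These rises and falls were picked by their vehicle calls, and the same vehicle libraries enter the difference. That choice favours smaller effects on metformin, so the tilt is not a separate result. The 8 genes with the lowest adjusted p for this difference were Lepr, Gpr171, Ccl9, Ece1, Ets2, Trps1, Sla and Reps2, before a tie for the following places, and in each of the 8 the log2 effect was higher on metformin, by 0.50 (Sla) to 1.81 (Gpr171). Slc7a11 rose by 2.62 ± 0.21 on vehicle and by 1.06 ± 0.20 on metformin (adjusted p of the difference 0.00921). Tfrc rose by 0.92 ± 0.12 on vehicle and was at −0.13 ± 0.13 on metformin (adjusted p of the difference 0.00458). Ccl9 rose by more on metformin, at 2.81 ± 0.16 (adjusted p of the difference 0.000653). Lepr, the leptin receptor, fell on vehicle (log2 difference −0.42 ± 0.07, adjusted p = 0.000831) and rose on metformin by 0.62 ± 0.07 (adjusted p of the difference 4.21e-05). It is one of 9 genes with called changes in opposite directions, of which Reps2 also kept its vehicle call in every fit.

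In the sterol list 8 genes rose on metformin and 16 on vehicle, and the difference between the effects was called for none of the 25 tested members by edgeR, with 12 lower on metformin and 0 higher at an unadjusted p under 0.05, and for 2 by DESeq2, both lower on metformin. Sqle was at 0.24 ± 0.16 on metformin (adjusted p of the difference = 0.0545). Il6 rose by 1.43 ± 0.28 and Tnf by 1.33 ± 0.31 on metformin, and their differences from vehicle were not called (adjusted p = 0.751 and 0.991).

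Some genes named here share exon positions with another annotated gene, and the library kit does not mark the strand, so their reads may be partly those of the partner. This holds for Cyp51, Acaa1b, Sash1, Pltp, Cxcl16, Gpd1, Pla2g7, Pim1, Dusp1, Csf1r, Slc15a3, Nfkb2, Fn1, Fcgr2b, Ecm1, Gclm, Bhlhe40, Coro1a, Slc7a2, Me1, Cish, Lss, Ucp2, Runx2, Ikbke, Mmp12, Ch25h, Hmcn1, Csf2rb, Csf2rb2, Ear1 and Cfb.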

How the data were processed

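The deposited table holds whole-number read counts per Ensembl gene for the 13 libraries, not normalized by the authors. Per the labels' protocols, the NEBNext Ultra I kit was used on polyadenylated RNA, and reads were 75-base single ends from a NextSeq 500. The submitters' processing notes name bcl2fastq 2.19, TopHat2, HTSeq, edgeR and mm10, with no role given. The annotation release and the strand setting of the counting are not given in the sources used here.

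Counts were tested as deposited with edgeR 4.0.16 (R 4.3.3) in 1 quasi-likelihood fit over all 13 libraries with a coefficient for each of the 4 groups, after its expression filter and TMM scaling, with Benjamini-Hochberg adjustment over 11906 genes and a threshold of 0.05. The fit left 9 residual degrees of freedom and the common biological coefficient of variation was 0.0635. CPM used the TMM-scaled library sizes, which rest on 5567481 to 8100538 counts per library. The test was tried on simulated counts with known changes. Alternatives were RLE and upper quartile scaling, DESeq2 1.42.0, limma-voom 3.58.1, other filters, a replicate block, the 2 groups alone, and each library left out.

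Symbols were matched by Ensembl identifier for 42462 of 43430 genes. Named genes were drawn from the 30 largest rises and falls with at least 5 CPM and no overlap, the 12 largest gains and losses in CPM, up to 4 members of each of 52 gene lists with the lowest p, and the 10 lowest adjusted p values of the difference between arms. Further genes were named for their known role or after their values were seen. The lists and rules were chosen with earlier results of these data known. Some genes of the sterol list are not reported here.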

Additional observations from a re-analysis of the deposited data

Results flagged for a closer look

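In 9 of the 171 named genes, 1 saline library on vehicle stood apart from the other 3, with a gap to the nearest library that exceeded Dixon's critical value for 4 samples. Chance flags about 1 in 20 such groups. PBS 3 was the high library for the immediate early genes Egr1 (648.5 CPM against 338.6 to 360.9 CPM) and Egr2 (290.2 against 238 to 242 CPM) for the chemerin receptor Ccrl2 (246.3 against 154.7 to 160.1 CPM) and for the signalling adaptor Traf3 at 43.2 CPM, and the low one for the kinase Ikbke (1.116 against 2.144 to 2.35 CPM). PBS 1 was high for C3 (276.5 against 247.1 to 252.1 CPM) and low for the sterol enzyme Msmo1 (32.92 against 45.91 to 46.87 CPM). PBS 2 was high for Mylip at 109 CPM, and PBS 4 for Hmcn1 at 17.86 CPM. The high library lay toward the PM level for Egr1, Egr2, Ccrl2, Traf3 and C3, and away from it for Mylip and Hmcn1.

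For 23 named genes the PM effect on metformin differed from that on vehicle in edgeR's test of the difference, at an adjusted p under 0.05. The log2 effect was lower on metformin for Slc7a11 by −1.564, Cyfip2 by −1.429, Apoe by −1.061, Tfrc by −1.05, Fos by −0.8054, Sgk1 by −0.5014, Pim1 by −0.4756, Bhlhe40 by −0.4233, Id2 by −0.4224 and Icam1 by −0.3195. All of these but Apoe had risen on vehicle, and picking genes by a vehicle rise favours a lower effect on metformin. It was higher on metformin for Gpr171 by 1.805, Ccl9 by 1.636, Ccl2 by 1.603, Ece1 by 1.6, Lepr by 1.04, Ets2 by 0.8798, Fkbp5 by 0.8631, Cmbl by 0.8034, Reps2 by 0.7854, Trps1 by 0.7786, Lipf by 0.7041, Sla by 0.5013 and Ptpn1 by 0.4432. Cmbl, Lipf, Lepr, Reps2 and Ece1 had fallen on vehicle, Ece1 with a call that was lost without PM 1, and Gpr171, Ccl2, Ets2 and Trps1 were not called there.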

How the results depend on the processing

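The 578 calls on vehicle (309 higher, 269 lower) became 573 with RLE scaling, 582 with upper quartile scaling, 543 with DESeq2, 580 with limma-voom, 849 with no filter, 577 with at least 5 CPM in 3 libraries and 523 with the 2 groups alone. Leaving out 1 library gave 359 to 584 in all, 209 to 317 higher and 150 to 267 lower. On metformin it gave 884 to 1666, 477 to 842 and 403 to 824, and for the difference between arms 113 to 262, 69 to 170 and 40 to 118. With no filter the difference was called for 507 genes, 277 higher and 230 lower, and the cause was not tested. Of the 152 named genes that were called, 138 were called in every fit that tested them and none changed sign. Genes that were not called and crossed 0 when 1 library was left out were Apoe (log2 difference −0.2026 to 0.06321, above 0 without PBS 1 or PM 3), Ccl4 (−0.3558 to 0.209), Cd74 (−0.2756 to 0.03341), S100a8 (−0.3889 to 0.05084), Cebpb (−0.08725 to 0.004367) and Ets2 (−0.04952 to 0.09742). Ets2, near 0, was also below 0 with the stricter filter (−0.001446), limma-voom (−0.0009538), upper quartile scaling (−0.003932) and the replicate block (−0.0226). Replicate numbers did not pair the libraries: the deviations of same-numbered PBS and PM libraries correlated at −0.102, 0.077 and 0.0206, and a replicate block gave 472 calls on vehicle (272 higher, 200 lower), 1401 on metformin and 194 for the difference. Genes under about 1 CPM rest on a few counts per library, and their fold changes depend on these.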
